A study of Mus musculus with 15 samples.

Results

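The genes described here are 9 genes of the Notch pathway: the receptor genes Notch1, Notch2 and Notch3, the nuclear factor gene Rbpj, and the target and regulator genes Hes1, Heyl, Nrarp, Dtx1 and Il2ra. They were chosen by name out of 22351 genes (protein-coding genes of chromosomes 1 to 19 and X, with Ptcra added), and the rule uses names only. Each was taken with 50 kb on either side of its gene body, which gave windows of 103 to 237 kb and 1348 kb in all, holding 308 peaks of the 5 lists. All 5 lists came from CD69-negative CD4+CD8+ cells of wild-type C57BL/6 thymus, the double-positive stage of T cell development before selection. Chromatin immunoprecipitation with sequencing (ChIP-seq) was done for CTCF (1 library), for the cohesin subunit Rad21 (2 replicates) and for acetylated lysine 27 of histone H3, H3K27ac (2 replicates). The series is about chromatin jets and cohesin-driven loop extrusion, and it has 15 samples. Its Hi-C samples (wild type, CTCF-/- and CTCF-/-, Rad21-/-) and input samples were not analysed here, so all comparisons below are between places in 1 kind of cell.

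Notch receptors are cut after they bind a ligand on a neighbouring cell, and the released intracellular part enters the nucleus and joins RBPJ, a DNA-binding protein that recognises TGGGAA, to switch on targets. In the thymus this signal commits progenitors to the T lineage and drives them to the checkpoint of the pre-T cell receptor, after which it falls as cells become double positive. Cohesin is a ring complex that extrudes loops of chromatin and is halted by CTCF where the CTCF motif points towards it, and it is also found at active promoters and enhancers, which carry H3K27ac.

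A region was called shared where peaks of both replicates overlapped by at least 1 bp, and a shared Rad21 region was called CTCF-free where no CTCF peak overlapped it. Promoter means within 2000 bp of any annotated transcription start site (TSS) of GENCODE on mm9. The fold values are the authors' fold enrichments of each peak, with replicate 1 given before replicate 2, and they rank peaks only within a list. The CTCF list has no replicate and 29.1% of its peaks have a q-value above 0.05. Counts of CTCF peaks below include these weak peaks, and those described singly within the windows are given with their −log10 q. The H3K27ac lists also hold peaks with a q-value above 0.05. Their smallest −log10 q was 0.188 in replicate 1 and 0.00455 in replicate 2. The share of such peaks was not counted, and no q-value cutoff was tried for H3K27ac. Over all shared regions the fold values of the replicates correlated with Spearman's rho of 0.773 for Rad21 (n = 30959) and of 0.0642 for H3K27ac (n = 16230), where points of a chromosome share libraries and depth. H3K27ac is therefore described by presence and width. Whether the replicates are separate animals is not given in the labels, and peak lists hold no read counts, so the depth behind each value is unknown. The sorted cells matched their label: all 9 double-positive marker genes, among them Cd4, Cd8a, Rag1 and Ptcra, had H3K27ac at the promoter, against 2 of 6 markers of earlier progenitors, 4 of 6 of mature T cells, 2 of 6 of B cells, 0 of 6 of myeloid cells and 0 of 5 of thymic epithelium. What the markers of other cell types add to the results was not tested.

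A few sequences that the results turn on are shown first, all written 5′ to 3′ from mm9. The Rad21 region that was strongest by the lower of its 2 folds lay in the last coding exon of Hes1, and its CTCF core motif is in capitals.
Hes1 chr16:30067247-30067275, minus strand: gtgcgctgCCGGGAGGGGGCGccgcgccc

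The strongest CTCF-free Rad21 region on H3K27ac lay in the Il2ra window, beside the start of the neighbouring gene Rbm17. The 200 bases at its summit held both E protein letters searched, CAGCTG and CAGGTG, which are in capitals. Upstream of Il2ra itself lay another such region, 5400 bp before the gene, with CAGGTG and the TCF letters CTTTGA in capitals.
Rbm17 side, chr2:11526600-11526799, plus strand: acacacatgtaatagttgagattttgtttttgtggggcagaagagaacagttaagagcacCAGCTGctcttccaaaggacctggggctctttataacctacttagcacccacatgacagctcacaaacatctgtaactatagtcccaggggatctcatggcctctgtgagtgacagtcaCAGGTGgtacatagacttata
Il2ra upstream, chr2:11558912-11559111, plus strand: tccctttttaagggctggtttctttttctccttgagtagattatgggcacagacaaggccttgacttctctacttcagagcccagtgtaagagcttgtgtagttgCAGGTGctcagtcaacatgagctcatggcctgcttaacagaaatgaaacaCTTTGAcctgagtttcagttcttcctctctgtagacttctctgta

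The RBPJ letters TGGGAA are shown in capitals at the members' own regions that held them outside exons. The first line is the stretch before the first annotated exon at the active start of Rbpj, as RefSeq gives it for GRCm38 (chr5:53590096-53590214), which matched mm9 letter for letter. The others are the CTCF-free Rad21 regions in an intron of Notch3, where capitals also mark CAGCTG and the RUNX letters TGTGGT on the other strand, and in an intron of Dtx1. These 2 regions and the region upstream of Il2ra were picked after their values were seen.
Rbpj, chr5:53981335-53981453, plus strand: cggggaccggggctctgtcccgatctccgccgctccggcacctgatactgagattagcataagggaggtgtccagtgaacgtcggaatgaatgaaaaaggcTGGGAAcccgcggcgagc
Notch3, chr17:32301358-32301557, plus strand: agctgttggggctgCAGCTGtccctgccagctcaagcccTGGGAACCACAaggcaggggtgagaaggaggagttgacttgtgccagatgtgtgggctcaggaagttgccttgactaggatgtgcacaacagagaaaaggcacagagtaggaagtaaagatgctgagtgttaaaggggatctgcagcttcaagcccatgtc
Dtx1, chr5:121135821-121136020, plus strand: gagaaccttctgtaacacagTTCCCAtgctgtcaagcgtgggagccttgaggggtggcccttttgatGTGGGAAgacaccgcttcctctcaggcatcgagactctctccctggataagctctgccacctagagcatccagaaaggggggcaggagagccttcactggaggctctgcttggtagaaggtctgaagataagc

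The main pattern followed the roles of the genes. The 3 receptor genes and Rbpj all had shared H3K27ac at the promoter (4 of 4) and a CTCF-free shared Rad21 region there (4 of 4). With a CTCF peak within 1000 bp counted as bound, an alternative chosen after seeing the data, the last count was 3 of 4, without Rbpj. Of the 5 target and regulator genes, only Nrarp had shared promoter H3K27ac (1 of 5), only Hes1 had a shared Rad21 region (1 of 5), and none had a CTCF-free one (0 of 5). Over all 9 genes this made 5 with promoter H3K27ac, where 41.5% of all genes have it, 5 with promoter Rad21 (31.5% of all genes), 4 with CTCF-free Rad21 at the promoter (17.0%) and 3 with a promoter CTCF peak (26.4%). The division by role was described after the values were seen and was not tested. It depends on which annotated starts are used: at the 5′ end of the gene model alone 4, 2 and 1 of the 9 genes had H3K27ac, Rad21 and CTCF, against 39.3%, 27.6% and 21.2% of all genes. These were Notch1, Notch2, Notch3 and Nrarp for H3K27ac, Notch2 and Notch3 for Rad21, and Nrarp for CTCF. The number of annotated starts ran from 1 at Notch2, Notch3 and Nrarp to 13 at Notch1, and more starts give more places for a match. Rad21 at promoters depended on the replicates too, since replicate 2 alone had a peak at 8 of 9 promoters, adding Nrarp, Dtx1 and Il2ra.

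**Figure D1:**
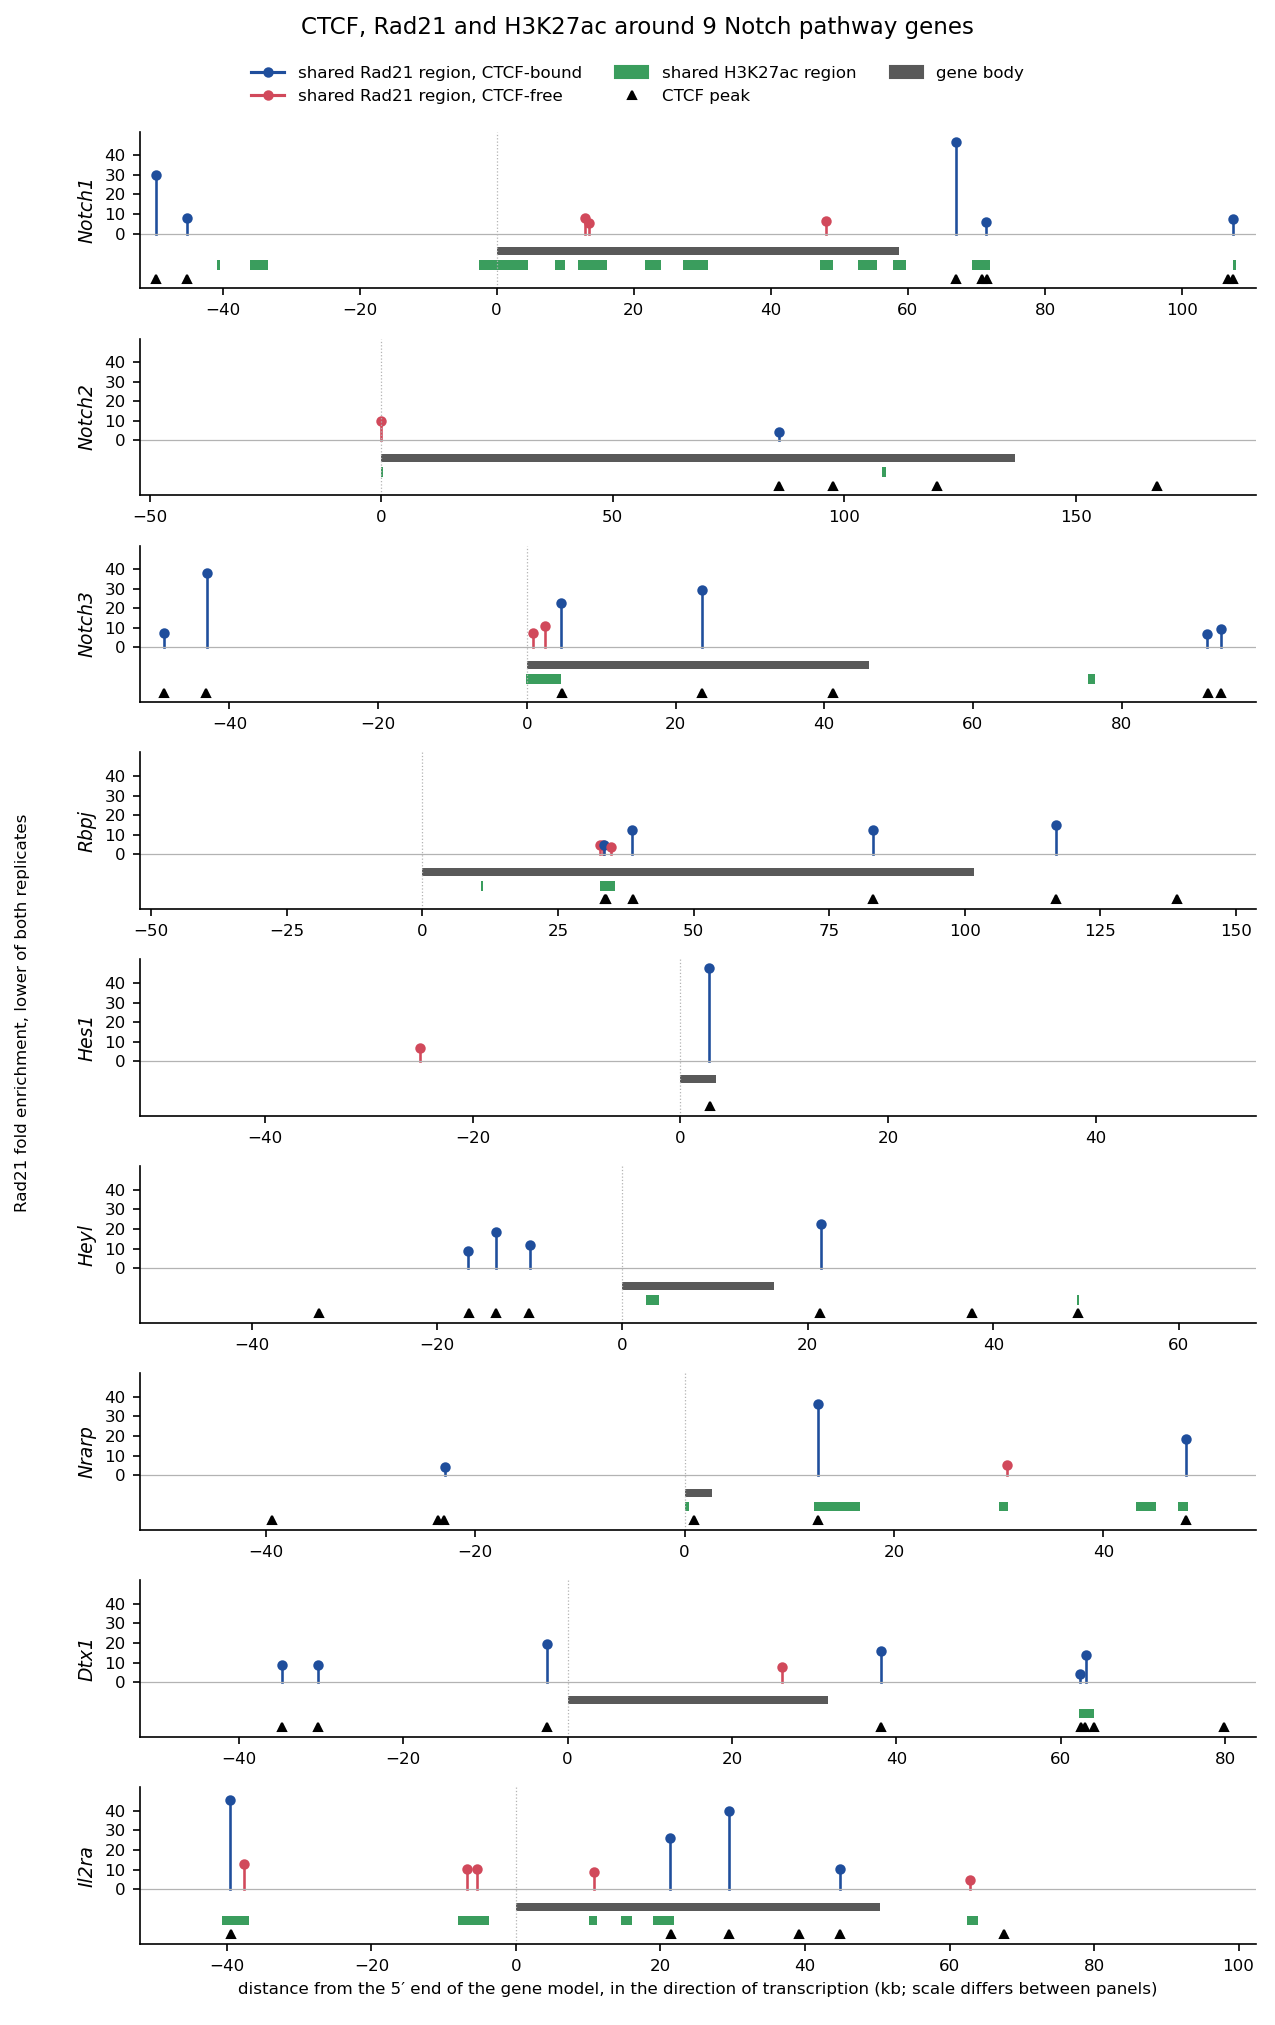
Each panel is the window of 1 gene. The horizontal axis is the distance from the 5′ end of the gene model in kb, in the direction of transcription, with a scale of its own in each panel, and the vertical axis is the Rad21 fold enrichment, the lower of both replicates. Lollipops are shared Rad21 regions, blue with and red without a CTCF peak, grey bars the gene body, green bars shared H3K27ac and triangles CTCF peaks. Green bars fill much of Notch1, none lies in the Hes1 panel, and the red lollipops reach 12.7 at most while the blue ones reach 47.7.

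Notch1, the receptor that T lineage commitment depends on (chromosome 2, 26313423 to 26372183, minus strand), was the most heavily acetylated of the 9. Shared H3K27ac covered 20.0% of its window and 37.5% of its gene body, which put it at percentile 97.9 and 96.3 of all genes. Replicate 2 alone covered less, 8.25% of the window and 18.1% of the body (percentiles 94.8 and 94.9). The gene was touched by 8 such regions, from 1472 to 7131 bp wide. The widest lay over the 5′ end of the gene model (26367598 to 26374728), where a Rad21 peak was listed in replicate 2 only (folds 9.18 and 3.55 at 2 places). The shared Rad21 regions lay instead at the start that RefSeq gives, 12841 bp inside the gene model. One covered that start (26359186 to 26359549) with folds of 7.80 and 9.41. The other lay 321 bp away (26358356 to 26359021) with folds of 5.58 and 5.38. Both were CTCF-free and inside a 4225 bp region of H3K27ac, and the nearest CTCF peak was 54076 bp from the start.

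The third CTCF-free region of Notch1 (26323828 to 26324401, folds 8.52 and 6.62) lay toward the 3′ end, 695 bp from an annotated internal start and in H3K27ac. There was no CTCF peak within the gene body. The CTCF-bound regions stood outside it on both sides. On the 3′ side, a region between Notch1 and Sec16a (26304917 to 26305567) had Rad21 folds of 51.0 and 46.8 and a CTCF fold of 16.3. On the 5′ side, a region 49703 bp upstream had folds of 29.7 and 35.1 with CTCF of 7.25, and one 45118 bp upstream had 7.74 and 13.3 with CTCF of 3.68. The gene and its 8 touching H3K27ac regions thus lay between CTCF-bound Rad21 regions 112059 bp apart, close to the median gap around all genes (114301 bp).

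Notch2 (chromosome 3, 97817461 to 97954290, plus strand), which is best known from marginal zone B cells, had the plainest promoter of the 9. One CTCF-free Rad21 region (97817212 to 97817797) lay over the start with folds of 10.1 and 11.7, together with 577 bp of shared H3K27ac. The nearest CTCF peak was 76295 bp away. Apart from these, H3K27ac at Notch2 differed between the replicates. There were 12 regions in replicate 1 only and 7 in replicate 2 only, and only 1 other shared region, so shared acetylation covered 0.616% of the window. The other Rad21 region was weak in both replicates (97903339 to 97903515, folds 5.84 and 4.14) and lay in an exon with a CTCF peak of fold 6.53.

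Notch3 (chromosome 17, 32257765 to 32303825, minus strand), a receptor gene that is itself induced by Notch signalling in thymocytes, had a compact cluster at its 5′ end. A shared H3K27ac region of 4692 bp (32299229 to 32303920) covered the start. Inside it stood a CTCF-free Rad21 region 630 bp from the start (folds 8.12 and 7.50), a stronger CTCF-free one in the intron 2247 bp from it (32301164 to 32301578, folds 11.3 and 10.7), which is the Notch3 sequence shown above, and a CTCF-bound one at its edge (32299007 to 32299423, folds 22.9 and 31.7, CTCF 13.4). In both replicates the Rad21 fold was higher at each region farther from the start, and only the farthest of the 3 had a CTCF peak. A further CTCF-bound region stood in an exon 23602 bp into the gene (29.7 and 29.3, CTCF 13.7). Beyond the 3′ end, 2 more CTCF-bound regions had folds between 7.04 and 15.3.

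Rbpj, which encodes the DNA-binding partner of all Notch receptors (chromosome 5, 53947018 to 54048684, plus strand), had no mark at the 5′ end of its gene model. All marks of an active promoter stood 34567 bp inside it, at the start RefSeq gives (53981585). There a shared H3K27ac region of 2894 bp held 3 CTCF-free Rad21 regions, with folds of 4.64 and 6.92, of 5.02 and 6.44, and of 3.90 and 5.46. The fourth region beside them (5.02 and 6.82) was counted as CTCF-bound through a CTCF peak of fold 2.35 and −log10 q of 0. A further CTCF peak at this promoter (53980845 to 53980991, fold 4.17, −log10 q 1.96) overlapped no shared Rad21 region, and the 3 CTCF-free regions lay 210 to 626 bp from the nearest CTCF peak. These were among the weakest Rad21 regions of the windows. Under a stricter cutoff for Rad21 and CTCF peaks (−log10 q of 5 or more), 4 of the 9 genes had promoter Rad21, and Rbpj was the gene that left the count. Stronger CTCF-bound regions lay in introns 38738 bp (16.6 and 12.5) and 83076 bp (13.9 and 12.4) into the gene model and beyond its 3′ end (15.0 and 27.4).

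Hes1, the classic Notch target and a basic helix-loop-helix repressor gene (chromosome 16, 30064470 to 30067882, plus strand), combined the highest Rad21 of the 9 windows, by the lower of both folds, with no acetylation. No H3K27ac peak of either replicate lay anywhere in its window of 103 kb, and the window lay at percentile 16.2 of all genes for that mark. One CTCF-bound region (30066931 to 30067441) had Rad21 folds of 66.1 and 47.7 and a CTCF fold of 16.4, and its lower fold was above 98.5% of all shared Rad21 regions. It covered the last coding exon, 2716 bp past the 5′ end. It counted as promoter Rad21 through annotated starts inside the gene model, the nearest of which lay 507 bp away. The only other shared region lay 25026 bp upstream (folds 7.81 and 6.68), with neither CTCF nor H3K27ac.

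Heyl, another repressor gene of the Hes and Hey family (chromosome 4, 122910799 to 122927118, plus strand), was the only one of the 9 without a CTCF-free Rad21 region in its window, where 43.6% of all genes have at least 1. This depended on the settings: with a −log10 q of 5 or more for Rad21 and CTCF, Heyl had 1 and Nrarp 0, and with 20 kb on either side Hes1 and Nrarp had 0 as well. It had 4 CTCF-bound ones, 3 upstream and 1 downstream, and none within 2000 bp of a start. Upstream, they lay 16631 bp (folds 13.9 and 8.85), 13645 bp (18.7 and 46.2) and 9986 bp (12.1 and 15.8) before the 5′ end. The downstream one lay 21368 bp after it (22.4 and 23.4). The region at 13645 bp was the one whose fold differed most between the replicates among these 4. H3K27ac in the gene was limited to an intron, 1366 bp wide and 2265 bp from the nearest start.

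Nrarp is a feedback regulator gene whose ankyrin repeat protein restrains the Notch complex (chromosome 2, 25036278 to 25038850, plus strand). Of the 5 target and regulator genes among the members, only Nrarp had shared H3K27ac at the promoter. That region was 400 bp wide (25036281 to 25036680). Rad21 was listed there in replicate 2 only, with folds of 5.20 and 3.74, and replicate 1 had no Rad21 peak within 12605 bp of the start. The nearest CTCF peak, 846 bp from the start, was weak (fold 3.55, −log10 q 0.656). The strong regions lay downstream, at 12791 bp in an exon of A830007P12Rik (36.5 and 37.4, CTCF 16.1) and at 47897 bp near Tubb2c (18.6 and 33.4, CTCF 24.0), both on H3K27ac. The gene's only CTCF-free shared region (5.06 and 5.27) lay at the start of the neighbouring gene Cobra1, 30592 bp from the start of Nrarp.

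Dtx1, which encodes the ubiquitin ligase Deltex 1 (chromosome 5, 121130211 to 121161936, minus strand), lacked H3K27ac throughout its gene body in both replicates, and the nearest shared region was 61902 bp from its RefSeq start, at Rasal1. Rad21 at the start was listed in replicate 2 only (fold 5.31). A CTCF-bound region stood 2505 bp upstream (121164198 to 121164684, folds 19.3 and 29.3, CTCF 12.3), the closest upstream one of the 9 genes and at percentile 9.41 of the distances of all genes. Inside the gene lay a CTCF-free region without H3K27ac (121135783 to 121136053, folds 7.74 and 12.8). It is the Dtx1 sequence shown above, with TGGGAA on both strands, of which 1 copy was the longer form GTGGGAA. It and the region upstream of Hes1 were the only 2 of the 17 CTCF-free regions outside H3K27ac. The other CTCF-bound regions of the window had folds from 3.96 to 32.8.

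Il2ra, which encodes the alpha chain of the interleukin-2 receptor and marks progenitors that receive Notch signals (chromosome 2, 11564419 to 11614818, plus strand), had the most shared Rad21 regions (9) and the most CTCF-free ones (5, percentile 94.5 of all genes). Its start was marked in 1 replicate of each antibody only, with an H3K27ac peak in replicate 1 (1748 bp) and a Rad21 peak in replicate 2 (fold 5.28). The shared marks lay upstream of it and inside the gene. Upstream, a 4277 bp H3K27ac region (11556366 to 11560642) held 2 CTCF-free regions, 6811 bp (folds 10.8 and 10.0) and 5400 bp (12.3 and 10.3) before the start. In an intron, 10791 bp into the gene, stood another CTCF-free region (8.51 and 11.3) on 1035 bp of H3K27ac. Farther in were CTCF-bound regions at 21327 bp (26.2 and 38.1, CTCF 19.8), at 29531 bp (40.0 and 42.4, CTCF 6.85) and at 44869 bp (10.4 and 15.3), the last through a CTCF peak of fold 2.45 and −log10 q of 0. The other CTCF-free regions of the window belonged to neighbours: the Rbm17 side region shown above (12.7 and 14.5) and one at the start of Il15ra (4.80 and 4.98).

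Across the 9 windows there were 51 shared Rad21 regions, of which 17 were CTCF-free (33.3%, against 34.1% of the 30959 over all chromosomes). The count rests on both replicates: replicate 2 alone had 92 regions, 56.5% of them CTCF-free, and replicate 1 alone 62, with 43.5%. CTCF-free regions were weaker. Their median folds were 7.81 and 7.50, against 14.5 and 20.8 for the 34 CTCF-bound ones, and the same held over all chromosomes (6.07 and 7.35 against 12.8 and 15.0). By the lower of both folds, 17 of the 34 CTCF-bound regions were above every CTCF-free one. The classes differed in their surroundings: 15 of 17 CTCF-free regions lay on shared H3K27ac (88.2%, against 72.0% over all chromosomes), and 10 of 34 CTCF-bound ones did (29.4% against 18.7%). The first share was lower under a stricter cutoff (55.6% with a −log10 q of 5 or more for Rad21 and CTCF) and with 1 Rad21 list (65.4% with replicate 2 alone, 70.4% with replicate 1 alone), all below the 72.0%, which was computed with the first setting only. By position, 11 of the CTCF-free regions lay at a promoter, 3 in introns and 3 between genes. Of the CTCF-bound regions 7 lay at a promoter, 11 in introns, 3 in exons and 13 between genes. Positions were not counted over all chromosomes, and the windows were built around genes, so these counts describe the windows only.

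**Figure D2:**
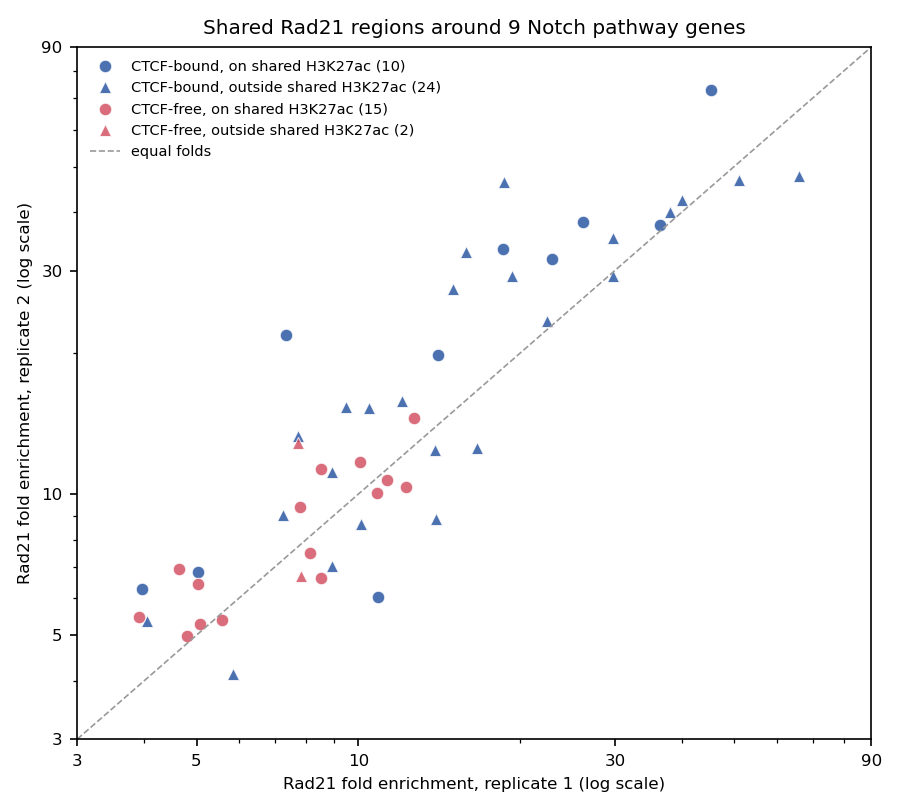
Each point is 1 of the 51 shared Rad21 regions, with its fold enrichment in replicate 1 on the horizontal and in replicate 2 on the vertical axis, both on log scales. Blue is CTCF-bound, red CTCF-free, circles lie on shared H3K27ac and triangles outside it, and the dashed line marks equal folds. The red points end at 12.7 and 14.5, and the 2 red triangles are the regions at Dtx1 and upstream of Hes1. Above the line lie 34 of the 51 points, as do 20262 of the 30959 shared regions over all chromosomes.

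Single-replicate peaks were nearly as many as shared regions. There were 39 Rad21 regions in replicate 2 only (median fold 5.27, highest 12.2) and 11 in replicate 1 only (median 5.06, highest 6.07). The Il2ra window held 10, the Nrarp window 9 and the Notch1 window 8 of those in replicate 2 only. At the starts of Nrarp, Dtx1 and Il2ra they were the only Rad21 peaks, so whether these 3 starts carry Rad21 was not settled by the lists.

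Beside all genes, the 9 windows held more Rad21 and CTCF regions at the median, a description with no test. The median of the 9 was 7 shared Rad21 regions against 3 for all genes, and 3.90 against 1.95 per 100 kb. The median count was 4 against 2 for CTCF-bound regions, 1 against 0 for CTCF-free ones and 6 against 3 for CTCF peaks. Shared H3K27ac covered a median of 1.62% of the window against 1.67%, while the peaks of replicate 1 alone covered 4.90% against 2.48% and those of replicate 2 alone 2.06% against 1.20%. All 9 windows held a shared Rad21 region, as do 75.2% of all windows, and all 9 a CTCF-bound one (72.3%) and a CTCF peak (82.1%). CTCF-free regions were in 8 windows (43.6%), and shared H3K27ac was in 8 as well (67.6%). In 6 windows a CTCF-free region lay on H3K27ac (36.7%). Among the 9 genes, Rad21 per 100 kb ran from 0.844 at Notch2 to 5.98 at Il2ra, and acetylation from 0% at Hes1 to 20.0% at Notch1. Dtx1 and Heyl stood high in CTCF (percentiles 88.6 and 88.4) and below the middle in H3K27ac (47.3 and 46.6).

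**Figure D3:**
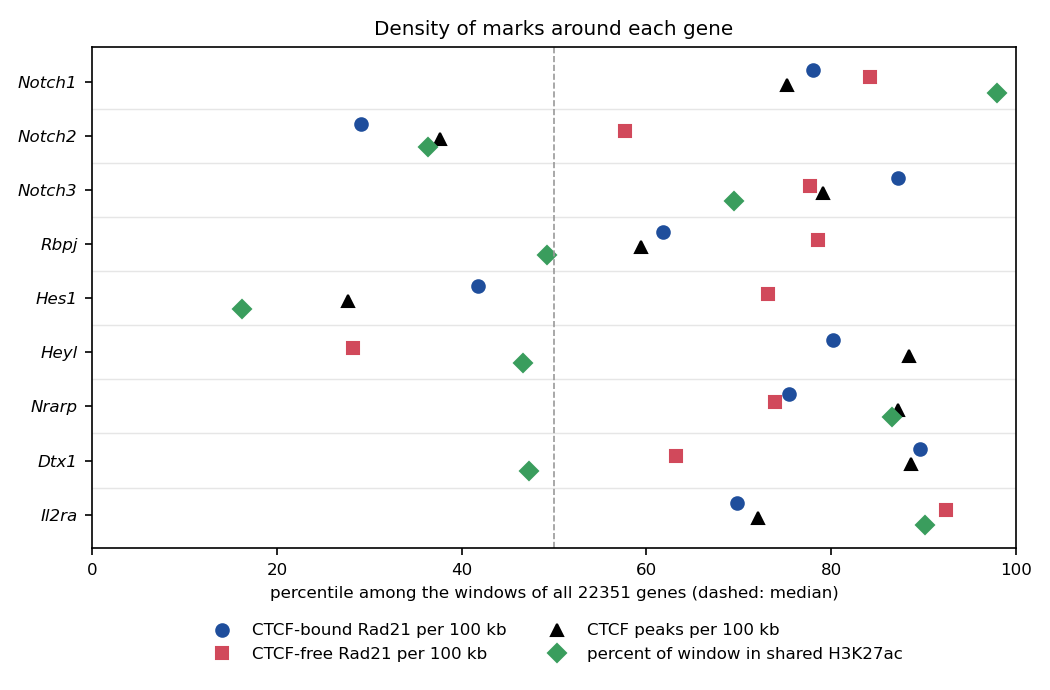
Each row is 1 gene and the horizontal axis is the percentile of its window among the windows of all 22351 genes, with ties at the middle of their range and the median dashed. Circles are CTCF-bound and squares CTCF-free Rad21 regions per 100 kb, triangles CTCF peaks per 100 kb and diamonds the percent of the window in shared H3K27ac. The diamonds run from 16.2 at Hes1 to 97.9 at Notch1, and the square of Heyl is at 28.2, the place of all windows with none.

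The windows held 52 CTCF peaks, of which 13 had a q-value above 0.05 and were kept in the counts below. On shared Rad21 lay 34 of the 52. A CTCF core motif (the consensus of the factor, at most 2 mismatches in 13 bases, within 50 bp of the summit, both strands) was present at 29 of these 34 (85.3%, against 85.4% of all such peaks) and at 8 of the 18 peaks without shared Rad21 (44.4% against 54.1%). At the CTCF-bound regions of Rbpj it was rare: 1 of 4 had it, the one 83076 bp into the gene. The direction of the motif was counted as well. Of the 29 sites on shared Rad21, 23 pointed toward the 5′ end of their gene (79.3%), where 48.7% do over the windows of all genes (46769 pairs of site and gene). Upstream of the gene all 11 sites did, against 49.6%, and downstream 12 of 18 did, against 48.2%. Over all 37 core motifs at CTCF peaks, with or without shared Rad21, 27 pointed toward it, 12 of 14 upstream and 15 of 23 downstream. The 2 upstream ones that pointed away lay 32691 bp before Heyl (CTCF fold 12.7, no mismatch) and 23513 bp before Nrarp (fold 5.26). The 11 upstream sites on shared Rad21 belonged to 5 genes: 3 each to Heyl and Dtx1, 2 each to Notch1 and Notch3 and 1 to Il2ra. Sites of 1 window are neighbours and may share their direction, and the count was made after values were seen, so it is a description with no test. The nearest of these sites to 4 of the genes are shown on the strand of the motif, with the core in capitals.
Dtx1 chr5:121164500-121164528, minus strand: agctctggCCACGAGGGGGCGctctgcac
Heyl chr4:122900736-122900764, plus strand: caaggaggCCAGAAGATGGCGatgaatct
Il2ra chr2:11524976-11525004, plus strand: tctgccggCCAAGAGATGGCGccattggc
Notch1 chr2:26417341-26417369, minus strand: caaggtgaCCACAAGGGGACAatgtggct

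Upstream of a gene, a motif that points toward the 5′ end lies on the strand of the gene by definition. The motifs shown were thus on the plus strand for Heyl and Il2ra and on the minus strand for Dtx1 and Notch1. The site upstream of Notch1 was weak (CTCF fold 3.68) and had a stronger one behind it with the same direction (7.25). At Heyl the downstream site pointed back toward the 5′ end as well, so that all 4 of its sites on shared Rad21 faced the gene. Its 2 cores without shared Rad21, 32691 bp upstream and 37682 bp downstream, pointed away. The downstream one of these lay at a weak CTCF peak (fold 2.88, −log10 q of 0). The 6 sites on shared Rad21 that pointed away were all downstream, 1 each at Notch1, Notch2, Notch3, Nrarp, Dtx1 and Il2ra.

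Short letters of other factors were counted at the CTCF-free regions, and their shares lay within 10 percentage points of those over all chromosomes. TGGGAA on either strand was within 100 bp of the summit at 3 of the 17 CTCF-free regions (17.6%, against 14.4% of 10559 over all chromosomes): in Notch1, Notch3 and Dtx1. GTGGGAA, which contains it, was at 1 (5.88% against 3.40%). CAGCTG was at 3 (17.6% against 19.6%), CAGGTG at 5 (29.4% against 23.9%), TGTGGT at 2 (11.8% against 20.8%) and CTTTGA at 2 (11.8% against 13.2%). In the Notch3 intron the TGGGAA and the reversed TGTGGT overlap by 1 base. RefSeq has promoters of 7 members (8 entries, GRCm38.p6, from 250 bases before to 50 after each start), and TGGGAA was in 2 of the 8 (25%, against 25.6% of 32851), both at Rbpj and from overlapping entries. It began 149 and 65 bases before the first of the starts, on opposite strands. A match is a run of letters and not a bound site.

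The other genes of the pathway showed how far the members stand for it. A list of 46 further genes was all found in the annotation. Shared promoter H3K27ac was at 32 (69.6%, against 41.5% of all genes), shared Rad21 at 27 (58.7% against 31.5%) and CTCF at 19 (41.3% against 26.4%). Of the ligand genes, which act in the sending cell, 0 of 5 had promoter H3K27ac: Dll1 and Jag1 had none of the 3 marks, Dll4 had CTCF alone, and Dll3 had Rad21 (folds 8.10 and 8.78) with CTCF. Genes of receptor cleavage had H3K27ac in 8 of 9 and Rad21 in 7, among them Adam10 (6.64 and 6.90), Adam17 (12.8 and 20.9) and Furin (8.77 and 8.15). Sugar-modifying enzymes had H3K27ac in 4 of 5, including Pofut1, Poglut1 and Mfng, whereas Lfng, whose product tunes the response to ligands, had none of the marks.

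Genes of endocytosis and turnover had H3K27ac in 7 of 9 and Rad21 in 4, and Numb, Numbl, Itch and Dtx2 had H3K27ac without Rad21. Coactivators had them in 5 and 4 of 6, with folds of 17.9 and 12.3 at Maml3 and 5.43 and 9.44 at Maml1, while Maml2 had neither. All 5 corepressor genes had H3K27ac and 4 had Rad21, with 41.8 and 39.1 at Spen. The other receptor gene, Notch4, had both at an internal start (8.37 and 5.85). Among 6 further targets, Hes5, Hes7, Hey1 and Hey2 had no promoter H3K27ac, and 2 of the 6 had it (33.3%, against 41.5% of all genes). The 2 were Ptcra, which is also in the list of double-positive markers, and Myc. At the Myc promoter, the Rad21 folds of 21.0 and 48.9 belonged to a CTCF-bound region. Shared promoter Rad21 was at 3 of the 6, Hes7 (7.25 and 11.9), Ptcra (5.58 and 7.61) and Myc. All 3 had a CTCF-free region there, at Myc beside the CTCF-bound one. Of the 5 target and regulator genes above 0 had one, and of all genes 17.0%. CTCF was at 3 of the 6, Hes5, Hey1 and Myc.

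**Figure D4:**
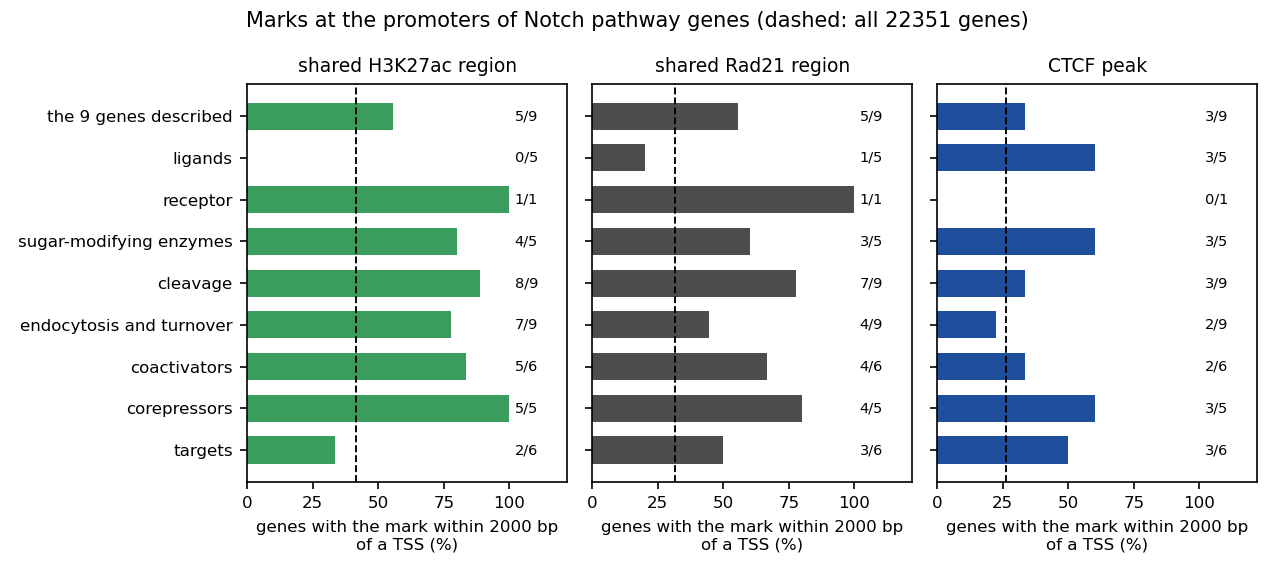
Bars give the percent of genes of each role with shared H3K27ac, shared Rad21 or a CTCF peak within 2000 bp of a TSS, the numbers beside them the genes with the mark and the genes in the role, and dashed lines the percent of all 22351 genes (41.5, 31.5 and 26.4). Ligands and targets lie below the line for H3K27ac (0 of 5 and 2 of 6 genes) and the other roles lie above it.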

How the data were processed

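ChIP-seq peak lists of CTCF (1 library), Rad21 and H3K27ac (2 replicates each) were used as deposited, 1 list per library, on mm9. MACS2 2.1.0, Bowtie 1.0.0 and CASAVA 1.82 and 1.84 are named for the series in the submitters' processing notes, while thresholds and the control used were not given in the sources used here. Per peak, the authors' files give a score (not used), the ratio of signal to local background (fold enrichment), the −log10 of p and q, and for CTCF and Rad21 the summit as another deposited value. The 8 Hi-C and 2 input samples were not analysed here.

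Peaks with the same coordinates were counted once. Shared regions, CTCF overlap (at least 1 bp) and promoters (2000 bp around GENCODE vM1 starts) were computed in Python 3.11.15 with pandas 2.3.3 and pysam 0.24.0, for the 9 genes and in the same way for all 22351 genes, and the counting was checked on planted peaks. RefSeq starts were placed on mm9 by exact match of the promoter sequence. The result is a description by counts, with no test. Regions named are those at the members' own starts and up to 4 CTCF-free and 4 CTCF-bound Rad21 regions per window with the highest lower fold, as far as they are reported here. The members, lists and motifs were chosen with earlier results of these data known. Alternatives were stricter q-values for Rad21 and CTCF, overlap, flank and promoter width, and each replicate left out. The 5′ end alone and CTCF within 1000 bp were added after seeing the data. Some items of the windows and lists are not reported here.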

Additional observations from a re-analysis of the deposited data

How the results depend on the processing

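Of 64 alternative values, 21 use none of the lists that the setting alters and cannot change. Of the other 43, 15 moved beyond the limit (1.5 times for a count, 1 SD between replicates for a percent) and 28 did not. A reversal of direction was not defined for these counts and shares. The number of the 9 genes with promoter Rad21 was 3 within 500 bp, 2 at the 5′ end of the gene model alone (an alternative chosen after seeing the data), and 5 to 8 when a replicate was left out. Promoter CTCF fell from 3 genes to 1 with a −log10 q of at least 5, to 1 within 500 bp and to 1 at the 5′ end alone. The 51 shared Rad21 regions became 87 with 100 kb on either side and 62 or 92 with Rad21 replicate 2 or 1 left out (51 to 92 with those of H3K27ac, which cannot change it). The CTCF-free share of 33.3% became 43.9% with a −log10 q of at least 5 and 43.5% or 56.5% with Rad21 replicate 2 or 1 left out (33.3% to 56.5% over both antibodies). The share of CTCF-free regions on H3K27ac, 88.2%, became 55.6% with a −log10 q of at least 5, 92.9% with 20 kb on either side, 70.4% or 65.4% with Rad21 replicate 2 or 1 left out, and 88.2% without either H3K27ac replicate. The cause was not tested, except that leaving out a Rad21 replicate replaces shared regions by all peaks of the other list. Promoter H3K27ac was at 4 genes at the 5′ end alone and at 6 without H3K27ac replicate 2. The share of window bases in H3K27ac, 5.14%, was 3.09% without H3K27ac replicate 1, 6.79% without replicate 2, 6.82% with 20 kb and 4.35% with 100 kb on either side. The SD between replicates is 2.61 percentage points there, so these count as within the limit. As for the other shares, that SD comes from the 2 values with a replicate left out, so it is no independent limit for them. No paired analysis was possible because the results are counts of peaks that come from no test. The CTCF list has no replicate, and the lists carry no depth, so a missing peak is not shown to be missing protein.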

Other observations

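The windows also held starts of neighbouring genes, which carried several of the regions counted. The strongest CTCF peak of the windows (fold 44.1, −log10 q 143) lay at the start of Rbm17, a splicing factor gene in the Il2ra window, with Rad21 folds of 45.4 and 73.0 and on H3K27ac. Rasal1, next to Dtx1, had H3K27ac and 2 CTCF-bound Rad21 regions at its start (14.1 and 19.8, and 3.96 and 6.27), while Dtx1 had no shared mark at its own. Inpp5e and Sec16a, downstream of Notch1, each had H3K27ac with a CTCF-bound Rad21 region at the start (7.35 and 21.9 at Inpp5e, 10.9 and 6.02 at Sec16a), and the CTCF peak at Sec16a was weak (fold 2.93, −log10 q 0.186). Tubb2c, a tubulin gene in the Nrarp window, had H3K27ac at its start, where the strongest Rad21 region found in 1 replicate only was listed (fold 12.2 in replicate 2). In the Heyl window, a CTCF peak of fold 12.7 near Nt5c1a lay on a Rad21 peak of replicate 2 only (fold 5.27).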
